A study of Mus musculus with 2 samples.

Results

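Trp53, Mdm2, Mdm4 and Cpm, a group of genes around the tumour suppressor p53, were followed in primary mouse hepatocytes made to express the RNA-binding protein HuR. Trp53 encodes p53, Mdm2 and Mdm4 encode its inhibitors, and Cpm is the gene next to Mdm2 on chromosome 10. They are 4 of the 20505 genes listed for both libraries and were picked by name, through their Ensembl identifiers in GENCODE mouse release M21. Their values in the comparison below were known when they were picked, so these values are given as a description. With 1 library per group, no difference between the groups could be tested.

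The hepatocytes came from C57BL/6 mice by perfusion of the liver with collagenase and were cultured in DMEM with 5% fetal bovine serum. They were infected overnight with an adenovirus carrying HuR or with an adenovirus carrying β-galactosidase (β-Gal), a bacterial enzyme that serves as the control, so both groups carry an adenoviral infection. Each group is 1 library of total RNA sequenced on an Illumina HiSeq X, and the sources used here do not give the number of mice behind it. The FPKM steps implied 17671387 reads in the HuR library and 18357017 reads in the β-Gal library.

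p53 is a transcription factor that halts the cell cycle or drives cell death after DNA damage and other stress. MDM2 is a ubiquitin ligase that marks p53 for destruction, and p53 in turn activates the Mdm2 gene, which closes a negative feedback loop. MDM4 (MDMX) resembles MDM2, binds the activation domain of p53 and forms a complex with MDM2, but degrades p53 poorly by itself. In mice, loss of Mdm2 or of Mdm4 is lethal to the embryo unless p53 is lost too, and loss of Mdm2 in adult hepatocytes leads to p53-dependent liver injury. CPM is a carboxypeptidase anchored at the outer cell surface that removes C-terminal arginine or lysine from peptides such as kinins, and in humans it is a marker of maturing macrophages. HuR, the product of Elavl1, binds U-rich and AU-rich stretches of RNA, many of them in 3′ untranslated regions (3′UTRs), and often stabilises the RNA it binds. In mammalian cells the mRNAs of p53 and MDM2 are among those it has been reported to bind.

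Mdm2 and Cpm lie end to end and HuR binds particular stretches of RNA, so the promoters of the pair and the stretches in question are given first. All coordinates are on the mouse build GRCm38. Mdm2 (ENSMUSG00000020184) spans chr10:117688875-117710758 on the minus strand and Cpm (ENSMUSG00000020183) spans chr10:117629500-117687352 on the plus strand. The 2 genes therefore point at each other, and 1522 bases separate their 3′ ends. Their start sites lie at opposite ends of the pair. The 250 bases before each start are shown from RefSeq (GRCm38.p6), 5′ to 3′ on the strand of the gene, with capitals for GGGCGG or its reverse complement CCGCCC, the core of a GC box, and for matches to the p53 half-site consensus.
Mdm2 promoter, chr10:117710759-117711008, minus strand: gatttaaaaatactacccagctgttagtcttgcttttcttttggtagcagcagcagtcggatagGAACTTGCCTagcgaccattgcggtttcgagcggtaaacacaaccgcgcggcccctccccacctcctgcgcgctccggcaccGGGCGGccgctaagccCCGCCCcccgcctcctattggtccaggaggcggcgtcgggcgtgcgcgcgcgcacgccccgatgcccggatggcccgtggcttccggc
Cpm promoter, chr10:117629250-117629499, plus strand: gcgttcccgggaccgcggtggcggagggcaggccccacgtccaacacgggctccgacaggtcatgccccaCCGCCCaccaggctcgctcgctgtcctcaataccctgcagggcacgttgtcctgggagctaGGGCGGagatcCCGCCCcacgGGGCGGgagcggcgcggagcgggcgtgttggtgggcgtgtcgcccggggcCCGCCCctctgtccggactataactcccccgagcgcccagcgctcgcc
The Mdm2 window holds GGGCGG at 2 places and 1 p53 half-site match, which begins at position -186 from the start. The Cpm window holds GGGCGG at 5 places and no half-site match, and its GC content is 74.4%, against 65.6% for Mdm2. Of 32851 RefSeq promoter windows of this length, 32.7% hold GGGCGG on either strand and 7.13% hold a p53 half-site match. None of the marked motifs overlap each other. The Trp53 window also holds 1 half-site match, at position -75, and the 2 Mdm4 windows hold neither motif. The p53-responsive promoter of Mdm2 is known to lie in the first intron, outside the window shown.

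The U-rich and AU-rich stretches were looked for in the 3′UTR of the longest protein-coding transcript of each gene in GENCODE M21. The longest U run in Trp53 and the AU-rich nonamer of Mdm2 are shown as DNA on the strand of the gene, with the run or the nonamer in capitals.
Trp53, 3′UTR bases 490 to 519: tctccctcTTTTTTTTTTTTTTaccccttt
Mdm2, 3′UTR bases 1266 to 1295: tggcattgatgTTATTTATTtgcaaataaa
The Trp53 3′UTR is 564 bases long and holds 1 ATTTA and 13 overlapping TTTTT, with a longest T run of 14 bases. The Mdm2 3′UTR is 1335 bases long and holds 8 ATTTA, 8 TTTTT and 1 TTATTTATT, which itself contains ATTTA. The Mdm4 3′UTR is much longer, at 5436 bases, and holds 11 ATTTA and 18 TTTTT. The Cpm 3′UTR of 3832 bases holds 3 ATTTA and 6 TTTTT. Trp53, Mdm4 and Cpm lack the nonamer in these 3′UTRs, searched on the strand of the gene only. ATTTA occurs in 67.8% and TTTTT in 76.2% of the 3′UTRs of 10998 compared genes, so that either motif by itself is common, whereas TTATTTATT occurs in 7.68%. Of the 845 compared genes with the nonamer, 5.80% were higher in the HuR library by 2-fold or more and 8.28% lower by as much, against 4.68% and 8.10% of the 10153 genes without it. A motif match describes letters and was not tested as a binding site.

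The label of the HuR library held in its own transcript. Elavl1 stood at 4480 FPKM in the HuR library and 9.67 FPKM in the β-Gal library, a 463-fold difference, and took 1.35% of reads in the HuR library. The deposited tables do not tell transgene reads from reads of the mouse gene. All 8 hepatocyte markers were within 1.5-fold, with summed levels of 36700 FPKM in HuR and 33300 FPKM in β-Gal cells. The fold changes below are log2((HuR + 1)/(β-Gal + 1)) on FPKM, that is, reads divided by transcript length and by library size, and they understate changes of genes of low expression. A level of 1 FPKM or more in one library or the other was reached by 12905 genes. Of these, 691 (5.35%) were higher in HuR cells by 2-fold or more, and 1072 (8.31%) were lower by as much. The median of all of them was -0.17 on the log2 scale, and with that median set to 0 the counts were 960 higher and 660 lower. No listed gene was at 0 in β-Gal, against 2233 at 0 in HuR. Any genes seen only in HuR cells are therefore absent from the higher counts, and the higher and lower shares are not on equal terms.

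Mdm2 and Cpm were higher in HuR cells by more than 2-fold, Trp53 was higher by 1.53-fold, and Mdm4 was lower by 2.08-fold. That makes 2 of the 4 genes at least 2-fold higher, beside 5.35% of compared genes, and 1 at least 2-fold lower, beside 8.31%; since the genes were picked with these values known, nothing is read from the shares. A lower level in a bulk library can come from fewer cells of a type or from less RNA per cell, and the 2 cannot be told apart here. Intervals given with the values are 95% intervals for the counting of reads and do not cover the spread between cultures.

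**Figure D1:**
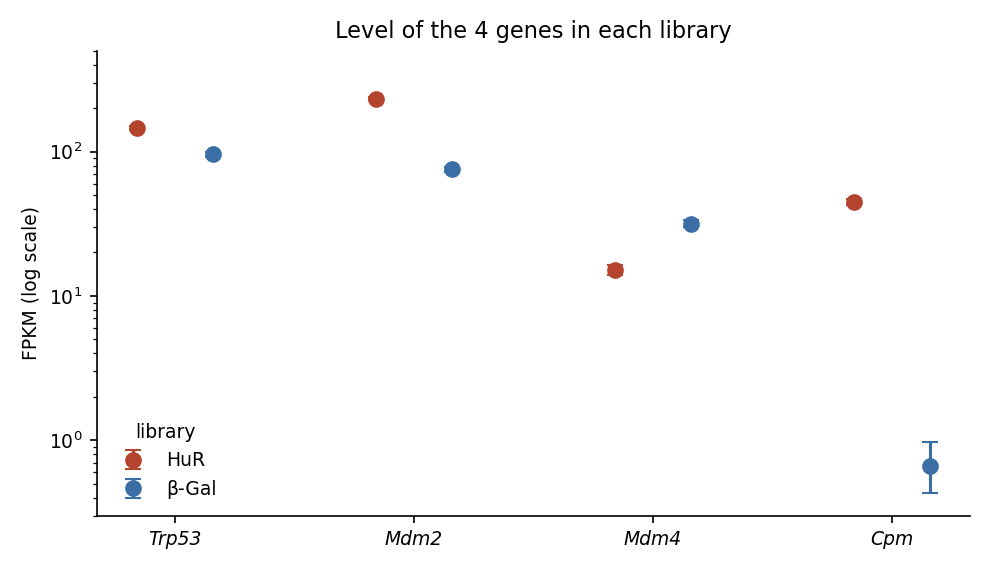
Level of Trp53, Mdm2, Mdm4 and Cpm in FPKM on a log axis, with the HuR library left of the β-Gal library for each gene; points are the 1 library per group and bars the 95% Poisson interval of the reads. Mdm2 and Cpm stand higher in HuR (232 and 44.6 FPKM) than in β-Gal (75.5 and 0.661 FPKM), Trp53 is higher by 1.53-fold, and Mdm4 is lower at 15.2 FPKM in HuR against 31.6 FPKM in β-Gal.

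Trp53 (ENSMUSG00000059552, chr11:69580359-69591873, plus strand) measured 146 FPKM in HuR cells (142 to 150) and 95.6 FPKM in β-Gal cells (92.3 to 98.9). These levels rest on 4684 reads in the HuR library and 3189 reads in the β-Gal library. The intervals do not overlap, and the fold was 1.53 (1.46 to 1.6), or 0.60 on the log2 scale, under the 2-fold threshold. Of all compared genes, 11.5% changed by as much or more in the upward direction. By level, Trp53 ranked 857 among listed genes in HuR cells and 1289 in β-Gal cells. The gene has 6 annotated transcripts of 403 to 3275 bases, and FPKM per gene cannot say which of them changed. Genes of similar GC content (54.5%) had a median log2 fold change close to 0, and with the trends on GC content and length removed the value of Trp53 was 0.50.

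Mdm2 measured 232 FPKM in HuR cells (227 to 238) and 75.5 FPKM in β-Gal cells (72.5 to 78.7), from 6899 reads in HuR and 2332 reads in β-Gal. The fold was 3.07 (2.93 to 3.22), and 1.78% of compared genes were as far or farther on the higher side. Its rank by level was 526 in HuR cells and 1682 in β-Gal cells, so the gene that stood below Trp53 in the control stood above it in HuR cells. Removing the GC and length trends left the log2 fold change nearly where it was, at 1.65 against 1.61. Only 2 of its 9 annotated transcripts are protein coding, and the reads of coding and other transcripts are not separated in these values.

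Mdm4 (ENSMUSG00000054387, chr1:132959484-133030561, minus strand) measured 15.2 FPKM in HuR cells (13.9 to 16.4) and 31.6 FPKM in β-Gal cells (29.9 to 33.4). The 578 reads in HuR and 1251 reads in β-Gal gave a level 2.08-fold lower in HuR cells (1.89 to 2.30). At -1.01 on the log2 scale the gene passed the 2-fold threshold narrowly, and 8.05% of compared genes were as far or farther on the lower side. Low GC content goes with lower values in the HuR library: the 500 compared genes nearest to Mdm4 in GC content (43.8%) had a median of -0.47, with 15% of them 2-fold lower or more and 0.8% higher by as much. Genes of similar transcript length had a median of -0.32. With both trends removed Mdm4 was at -0.56, no longer 2-fold lower. It also missed 2-fold at -0.85 when values were centred on the median of all genes, at -0.86 with a pseudocount of 5 FPKM and at -0.99 when the reads of Elavl1 were left out of the HuR total. The part that GC content or transcript length has in the Mdm4 value was not tested. The gene has 14 annotated transcripts, 5 of them protein coding, and a pseudogene, Gm29257, lies inside it on the opposite strand, at 0.443 FPKM in HuR and 0.682 FPKM in β-Gal. The sources used here give no strand setting for the counting, so overlapping genes on opposite strands cannot be separated. Processed pseudogene copies of Trp53 and of Mdm4 are annotated on other chromosomes. They are not analysed here, and reads that they share with their parent genes could fall to either.

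Cpm measured 44.6 FPKM in HuR cells (42.5 to 46.8) and 0.661 FPKM in β-Gal cells (0.432 to 0.968). Only 26 reads lay behind the β-Gal level, against 1690 reads in HuR. The fold was 67.5, with an interval of 45.9 to 104 set mostly by those few control reads, or 4.78 on the log2 scale with the pseudocount. Among the 12905 compared genes, none of them at 0 in β-Gal, it had the 4th highest log2 fold change. By level Cpm ranked 2664 in HuR cells and 13119 in β-Gal cells. Its log2 fold change remained high at 4.86 with the GC and length trends removed. It spans 4 annotated transcripts of 573 to 5195 bases, 1 of them protein coding.

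**Figure D2:**
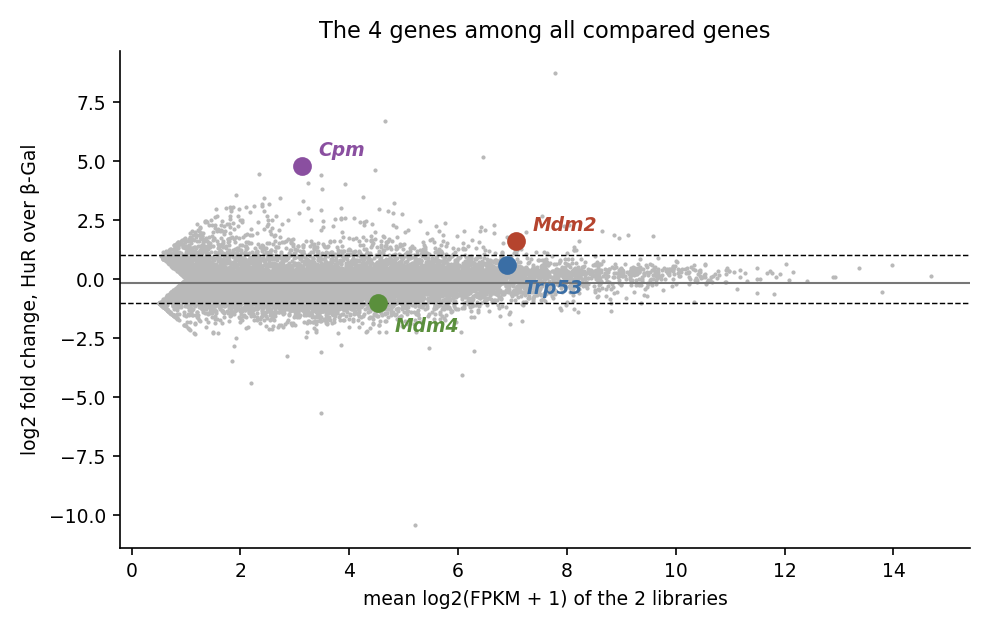
Log2 fold change of HuR over β-Gal against the mean log2 level for the 12905 compared genes (grey), with the 4 genes in colour; dashed lines stand at 2-fold and a solid line at the median of -0.17. Cpm lies near the top of the cloud at 4.78, Mdm2 at 1.61 and Trp53 at 0.60 above the median line, and Mdm4 at -1.01 on the lower dashed line.

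The order of the levels was Mdm2, Trp53, Cpm and Mdm4 in HuR cells, and Trp53, Mdm2, Mdm4 and Cpm in β-Gal cells, in FPKM, that is per transcript length. Neighbours in either order did not overlap in their counting intervals, and the orders were the same when the longest transcript replaced the mean length. The Mdm2 level was 1.59 times that of Trp53 in HuR cells (1.53 to 1.65) and 0.79 times in β-Gal cells (0.749 to 0.834). Mdm4 stood at 0.104 times Trp53 in HuR cells (0.0952 to 0.113) and at 0.33 times in β-Gal cells (0.309 to 0.353). As a result the ratio of Mdm2 to Mdm4 was 15.3 in HuR cells (14.1 to 16.7) and 2.39 in β-Gal cells (2.23 to 2.56), a 6.4-fold difference. That ratio thus differed more than the level of Trp53, but it combines a higher and a lower gene, both picked with their values known. With the GC and length trends removed, Mdm4 moved from -1.01 to -0.56 on the log2 scale, while Mdm2 was at 1.65. These ratios concern RNA and say nothing of the proteins. Cpm stood at 0.192 times Mdm2 in HuR cells and at 0.00875 times in β-Gal cells.

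To see whether the region around Mdm2 differed as a whole, the other genes within 500 kb were examined. Apart from Cpm, 6 genes around Mdm2 were compared. None of them was past 2-fold, beside 5.35% of all compared genes on the higher side and 8.31% on the lower side. They ranged from -0.45 to 0.40 on the log2 scale. Upstream of Mdm2, Slc35e3, a nucleotide-sugar transporter family gene 22.9 kb away, measured 7.07 FPKM in HuR and 8.78 FPKM in β-Gal. Nup107, a nuclear pore component, followed at 39.9 kb with 4.37 FPKM in HuR and 6.35 FPKM in β-Gal. Rap1b, a small GTPase 103 kb away, was at 54.7 FPKM in HuR and 51.1 FPKM in β-Gal. On the Cpm side, 309 kb from Mdm2, the cleavage factor gene Cpsf6 was at 34.0 FPKM in HuR and 39.3 FPKM in β-Gal. The lysozyme gene Lyz1, 396 kb away, was under 1 FPKM in both. Mdm2 and Cpm, picked with their values known, were thus the only compared genes past 2-fold in that window. With so few genes, the absence of others past 2-fold is not read as a trait of the region.

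**Figure D3:**
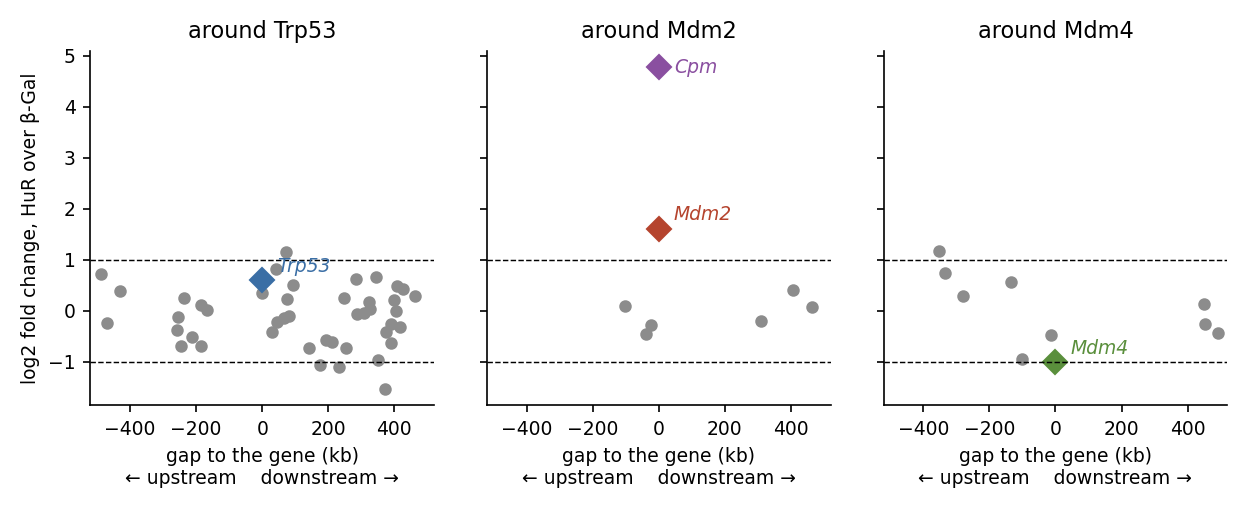
Log2 fold change of HuR over β-Gal for compared genes within 500 kb of Mdm2, Trp53 and Mdm4, against their distance in kb; dashed lines stand at 2-fold. Around Mdm2 the points other than Mdm2 and Cpm lie between -0.45 and 0.40, around Trp53 4 neighbours lie past 2-fold, and around Mdm4 1 does.

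Trp53 sits in a denser region, where 44 other genes were compared within 500 kb. Past 2-fold were 1 higher and 3 lower, beside 5.35% and 8.31% of all compared genes. The 4 were Cd68, a macrophage glycoprotein gene, at 1.16 on the log2 scale, and Zbtb4, Nlgn2 and Cldn7 at -1.06, -1.10 and -1.54. All are named for having passed 2-fold. Wrap53, whose product carries telomerase RNA to Cajal bodies, starts 103 bases upstream of Trp53 on the opposite strand. It measured 14.7 FPKM in HuR and 11.4 FPKM in β-Gal, 0.34 on the log2 scale. Around Mdm4, 9 other genes were compared and 1 was past 2-fold, on the higher side, beside the same shares of all genes. That was Sox13, named for the same reason, a transcription factor gene, with 28.9 FPKM in HuR and 12.3 FPKM in β-Gal. The nearest compared neighbour of Mdm4, the lipid kinase gene Pik3c2b at 15.1 kb, measured 1.49 FPKM in HuR and 2.48 FPKM in β-Gal.

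Pairs built like Mdm2 and Cpm were then counted across the genome. Among compared genes, 906 pairs ended tail to tail within 5 kb of each other. A gene was counted once for each pair in which it faced a partner at least 2-fold higher in HuR cells, which gave 138 counts. Of these 138, 8 (5.80%) were at least 2-fold higher themselves, next to 5.35% of all compared genes. The median of the 138 was 0.08 on the log2 scale. At this setting the 2 shares lay close together, and under other settings, given in the closing section, they lay farther apart. The 8 genes form 4 pairs, each counted from both sides. Mdm2 and Cpm are 1 of these pairs and are counted in the share, here and under the other settings. Another is Dcxr, a carbonyl reductase gene, with Rac3, a GTPase gene. Dcxr, which is also counted among the other p53 targets below, measured 118 FPKM in HuR and 32.3 FPKM in β-Gal. Rac3 measured 9.98 FPKM in HuR and 2.54 FPKM in β-Gal. A further pair is Pld4 with Ahnak2, where Pld4 measured 40.6 FPKM in HuR and 0.744 FPKM in β-Gal, and Ahnak2 15.6 FPKM in HuR and 4.91 FPKM in β-Gal. The last consists of Gm26917 and CT010467.1, which lie 11 bases apart and carry no gene name beyond their model identifiers. Whether transcripts of Mdm2 run on into Cpm or the reverse cannot be seen in values per gene and was not tested.

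Genes that act above p53 come next, from a list of its relatives and kinases. This list and the other p53, MDM2 and carboxypeptidase lists below were written with earlier results of these data known. Their counts are given as a description. Trp63 was not among the listed genes and Trp73 was under 1 FPKM in both libraries, so no relative was compared. Of the 13 compared kinases, 5 passed 2-fold on the lower side and 0 on the higher side, beside 8.31% and 5.35% of all compared genes. Their median was -0.69. The lower count was 5 with GC and length trends removed and 1 with a pseudocount of 5 FPKM. Atm, the kinase that responds to DNA double-strand breaks, measured 1.71 FPKM in HuR and 7.93 FPKM in β-Gal. Atr, its counterpart for stalled replication forks, measured 2.48 FPKM in HuR and 8.87 FPKM in β-Gal. Hipk2, a kinase that phosphorylates p53 in its activation domain, was 4.29-fold lower (3.70 to 4.99), at 3.88 FPKM in HuR against 16.7 FPKM in β-Gal. Dyrk2, which phosphorylates the same region in human cells, was at 7.97 FPKM in HuR and 20.5 FPKM in β-Gal. The checkpoint kinase gene Chek2 was the other member past 2-fold.

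Of 13 compared cofactors and acetylation enzymes of p53, 1 was past 2-fold on each side, beside 5.35% higher and 8.31% lower of all compared genes. The list had a median of -0.27. The higher one was Ppp1r13l, which encodes iASPP, an inhibitor of p53, with 304 FPKM in HuR and 74.4 FPKM in β-Gal, 4.08-fold (3.85 to 4.32). The lower one was Kat2b, an acetyltransferase (PCAF) that acts on p53, with 16.3 FPKM in HuR and 80.9 FPKM in β-Gal. Ep300, the acetyltransferase p300, had 12.0 FPKM in HuR and 23.8 FPKM in β-Gal, just short of 2-fold. Trp53bp1, a DNA-repair scaffold that binds p53, had 6.54 FPKM in HuR and 11.2 FPKM in β-Gal.

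Other ubiquitin ligases and deubiquitinases of p53 and MDM2 held no gene past 2-fold on the higher side, among 12 compared, and 1 on the lower side. The shares of all compared genes were 5.35% and 8.31%. The median of the list was -0.47. Its 1 lower gene was Huwe1, a very large ligase of p53, with 48.1 FPKM in HuR and 112 FPKM in β-Gal. Huwe1 too missed 2-fold with the GC and length trends removed. Rffl had 19.4 FPKM in HuR and 31.6 FPKM in β-Gal. The ligases Trim24 and Ube4b lay between these and the list's median. With 5.35% of all compared genes that high, the absence of a 2-fold higher gene among 12 is not read as a trait of the list.

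Proteins that bind or restrain MDM2 include ribosomal proteins, which bind it under nucleolar stress. Of 17 compared genes none was past 2-fold, beside 5.35% higher and 8.31% lower of all compared genes. Within 1.5-fold were 16 of the 17, beside 64.5% of all compared genes. The median was 0.29, or 0.00 with the GC and length trends removed. Nop53, a nucleolar protein that controls the release of RPL11, had the greatest difference, with 296 FPKM in HuR and 151 FPKM in β-Gal. Yy1, which promotes the ubiquitination of p53 by MDM2, had 47.9 FPKM in HuR and 68.2 FPKM in β-Gal. Rps27l, a p53-inducible ribosomal protein gene whose product binds MDM2, had 746 FPKM in HuR and 538 FPKM in β-Gal. Values of ribosomal protein genes are uncertain because they have many processed pseudogenes.

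Targets of p53 passed 2-fold on the higher side only, on the log2 scale used. Among 5 targets that feed back on p53, 1 was at least 2-fold higher, beside 5.35% of all compared genes. It was Ppm1d, which encodes the phosphatase WIP1 that removes activating phosphates from p53 and ATM, with 22.6 FPKM in HuR and 7.99 FPKM in β-Gal, 2.83-fold (2.46 to 3.27). Ccng1, encoding cyclin G1, which brings a phosphatase to MDM2, had 105 FPKM in HuR and 65.5 FPKM in β-Gal. Trp53inp1, a stress protein that promotes p53 activity, had 76.7 FPKM in HuR and 58.9 FPKM in β-Gal. The ligase gene Siah1b had 0.869 FPKM in HuR and 2.05 FPKM in β-Gal, 2.36-fold lower (1.42 to 4.07) without the pseudocount. Its level is low, and it shares much of its sequence with Siah1a.

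Of 28 other p53 targets, 12 passed 2-fold on the higher side and 0 on the lower side, beside 5.35% and 8.31% of all compared genes. The median was 0.86, and the higher count was 11 to 15 under the settings tried. The targets were listed with earlier results of these data known, so nothing is read from these shares. Pmaip1 and Bbc3, which encode the cell-death proteins NOXA and PUMA, led the list. Pmaip1 had 14.9 FPKM in HuR and 0.741 FPKM in β-Gal, and Bbc3 had 467 FPKM in HuR and 72.5 FPKM in β-Gal. The death receptor gene Fas had 60.2 FPKM in HuR and 11.6 FPKM in β-Gal. Gdf15, a secreted stress hormone gene, had 573 FPKM in HuR and 118 FPKM in β-Gal. The log2 fold changes of the 28 targets ran from -0.55 to 3.20, and 25 of them were above 0.

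**Figure D4:**
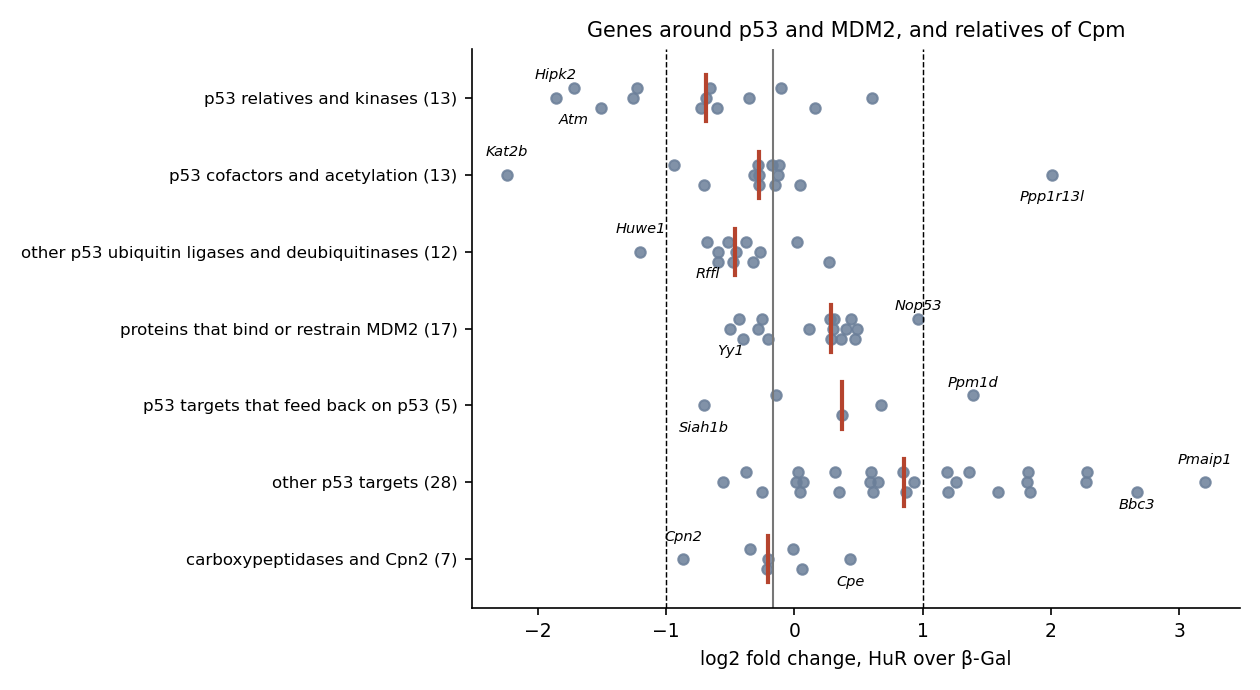
Log2 fold change of HuR over β-Gal for each compared gene (points) of 7 lists, with the list median as a red bar, the median of all compared genes as a solid line at -0.17 and 2-fold as dashed lines. The compared genes of the list of p53 relatives and kinases, all of them kinases, lie to the left with a median of -0.69. Other p53 targets lie to the right with 12 of 28 past 2-fold. The lists were written with earlier results of these data known. Other carboxypeptidases lie within 2-fold on this scale.

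No other compared carboxypeptidase gene differed as far as Cpm did. Of 22 genes in a list of the M14 family, to which Cpn2, the non-catalytic subunit of carboxypeptidase N, was added, 12 were listed and 7 compared. None of the 7 was past 2-fold, beside 5.35% higher and 8.31% lower of all compared genes. Their median was -0.21, or 0.10 with the GC and length trends removed. With 7 genes compared, and Cpm 4th highest of all 12905 compared genes, neither is read as a trait of the family. Cpe, a prohormone-processing enzyme gene, had 24.1 FPKM in HuR and 17.6 FPKM in β-Gal. Cpn2 had 2.89 FPKM in HuR and 6.10 FPKM in β-Gal, 2.11-fold lower (1.8 to 2.47) without the pseudocount. The liver-secreted Cpb2, which restrains the breakdown of clots, had 308 FPKM in HuR and 310 FPKM in β-Gal, and Cpn1, the catalytic subunit of carboxypeptidase N, had 69.5 FPKM in HuR and 66.4 FPKM in β-Gal. Cpb2 and Cpn1 were picked out after their values were seen.

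Because CPM is known from macrophages, the levels of Kupffer cell and macrophage markers belong beside its value. All 14 markers were listed and none was at 0. Of the 9 compared, 4 were at least 2-fold higher in HuR cells and 0 lower, beside 5.35% and 8.31% of all compared genes, and with GC and length trends removed the higher count was 1. The sum over the list was 148 FPKM in HuR and 68.4 FPKM in β-Gal, a ratio of 2.17. More than any other marker, Cd68 set that sum. Cd68 had 90.4 FPKM in HuR and 40.0 FPKM in β-Gal, and the scavenger receptor gene Marco 14.8 FPKM in HuR and 5.55 FPKM in β-Gal. Clec4f and Adgre1, which define Kupffer cells and macrophages in the mouse, had 1.54 and 0.977 FPKM in HuR and 1.13 and 0.735 FPKM in β-Gal. Stellate cell and fibroblast markers went the other way, with a sum of 1.67 FPKM in HuR and 12.0 FPKM in β-Gal. The part of other cell types in the Cpm value was not tested further.

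Finally, the genes whose levels in the 2 libraries were nearest to each of the 4 were found among 10829 named protein-coding genes, by distance in log2(FPKM + 1). With 2 libraries many genes lie near any moderate value, so nearness is a description of level alone. Trp53 lay within 0.017 of Gnl2, and Mdm4 within 0.0072 of Glg1, at 15.2 FPKM in HuR and 31.4 FPKM in β-Gal. Mdm2 had no neighbour as close, with Arl8a at 0.16 (222 FPKM in HuR and 83.5 FPKM in β-Gal) followed by Mcm7 and Ppp5c. Nearest to Cpm was Pld4 at 0.15, with 40.6 FPKM in HuR and 0.744 FPKM in β-Gal, and then Gzmm at 0.53 and Wfikkn1 at 0.57. Pld4 is also a member of a tail-to-tail pair in which both genes were higher, as described above.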

How the data were processed

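The authors deposited 1 table of FPKM values per gene for each of the 2 libraries. Per the submitters' processing notes, TopHat2, HTSeq 0.6.1 and the build GRCm38 were used. The FPKM calculation, annotation, kit and strand setting are unstated, that is, not given in the sources used here. No gene of the β-Gal table was at 0, against 2233 in the HuR table, so genes seen only in HuR cells are not analysed here. Of 20505 genes, 20143 matched GENCODE M21. Steps of FPKM times rounded mean transcript length implied library totals; 14763 genes (73.3%) lay within 0.02 of whole reads in both libraries. For Mdm2 and Elavl1 the length was the nearest one that gave whole reads in both. Reads served for exact intervals (95%, Poisson for levels, Clopper-Pearson for folds), which cover counting error only. They also gave the share of reads of Elavl1, the scaling without Elavl1 and the levels and ratios at longest transcript length. Fold changes used a pseudocount of 1 FPKM, genes of at least 1 FPKM in either library and a 2-fold threshold; no test was possible with 1 library per group. GC and length trends were running medians over 500 genes. On simulated data the removal of a GC trend was tested, and that of a length trend was not. From each list up to 4 genes with the greatest change were picked. For each of the 4 genes, the 6 nearest neighbours and 3 nearest genes by level were picked. Not all of the picked genes are named. Python 3.11.15, numpy 2.4.6, pandas 2.3.3, scipy 1.17.1 and matplotlib 3.10.9 were used. The genes and lists were chosen with earlier results of these data known. Other pseudocounts, filters, scalings, thresholds and lengths were tried.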

Additional observations from a re-analysis of the deposited data

How the results depend on the processing

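With 1 library per group no spread between cultures is known, and depth limits mainly the β-Gal level of Cpm, at 26 reads. No direction of the 4 genes reversed under the alternatives tried. Centred on the median of all genes, Trp53 was at 0.77, Mdm2 at 1.77 and Mdm4 at -0.85 (log2). With GC and length trends removed, an alternative added after the data were seen, Trp53 was at 0.50 and Mdm4 at -0.56. A pseudocount of 5 FPKM gave -0.86 for Mdm4 and 3.13 for Cpm, and one of 0.1 FPKM gave 5.88 for Cpm, so Mdm4 missed 2-fold under centring, trend removal and the larger pseudocount, and also at -0.99 without the reads of Elavl1. Genes at least 2-fold higher numbered 260 with a pseudocount of 5 FPKM and 444 with a minimum of 5 FPKM, and 1555 passed 1.5-fold. Genes at least 2-fold lower numbered 1762 with a pseudocount of 0.1 FPKM, 330 with 5 FPKM and 660 when centred, and 3026 passed 1.5-fold. Lower kinases numbered 1 with a pseudocount of 5 FPKM. With trends removed, 0 other ligases were lower and 2 feedback targets were higher. When centred, 1 MDM2-binding gene was higher. A pseudocount of 0.1 FPKM put 1 feedback target and 1 carboxypeptidase gene at 2-fold lower. Neighbours past 2-fold near Trp53 numbered 7 with a pseudocount of 0.1 FPKM, 1 with 5 FPKM and 2 when centred; near Mdm4 they numbered 2 with 0.1 FPKM and 0 with 5 FPKM. Of genes facing a higher gene at the tail, counted once per pair, 26 (13.8%, against 8.02% of all compared genes) were higher with a pseudocount of 0.1 FPKM. The number was 6 (11.3%, against 2.01%) with 5 FPKM and 20 (11.6%, against 7.44%) when centred. With a minimum of 5 FPKM it was 8 (10.5%, against 4.74%). The cause was not tested. With longest transcript lengths, Mdm4 over Trp53 was 0.0569 in HuR and 0.181 in β-Gal, Mdm2 over Mdm4 was 27.0 in HuR and 4.21 in β-Gal, and Cpm over Mdm2 was 0.148 in HuR. On FPKM + 1, Cpm over Mdm2 was 0.0217 in β-Gal. No paired analysis was possible because each group has 1 library.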
